A study of Mus musculus with 6 samples.

Results

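The 39 genes described here encode the machinery that brings proteins into the endoplasmic reticulum (ER), folds them there and removes those that fail to fold. They were chosen by name, and all 39 were found among the 20637 genes listed for each library. They fall into 12 chaperones and folding factors, 7 disulfide isomerases, 3 stress sensors and transcription factors, 8 degradation genes and 9 translocon genes. The set was picked with earlier results of the same comparison known, so its values are given as a description and none of them is offered as a test. Of the 39 genes, 38 reached a value of 1 or more in 3 or more of the libraries and entered the analysis across all genes. Derl3, a membrane protein of the degradation pathway, was the 1 gene below this minimum, and the lowest gene above it was Ern1.

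Whole uteri were collected on postnatal day 21 from female mice of 2 genotypes, Nat10 f/f (floxed controls, 3 libraries) and Nat10 d/d (Nat10-deleted, 3 libraries), and their poly(A) RNA was sequenced. Nat10 encodes an enzyme that acetylates cytidines in RNA. The labels name no Cre driver, deleted exons, cells carrying the deletion, strain, litter or batch, and they do not say whether a library came from 1 animal. P-values therefore measure the spread between these libraries, which may be technical in part. Values are FPKM, that is, read abundance scaled by transcript length and by library size, and the number of reads behind them is unknown.

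Proteins destined for secretion or for membranes enter the ER through the Sec61 channel, are folded by chaperones such as BiP (Hspa5) and calreticulin (Calr), and have their disulfide bonds formed by the protein disulfide isomerases. Molecules that do not fold are passed back to the cytosol for degradation. When folding falls behind, the sensors IRE1 (Ern1), ATF6 and PERK start the unfolded protein response, which raises transcription of many of these genes. Tissues that secrete collagen and other matrix proteins, as the uterine stroma does, carry a large folding load.

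Nat10, the deleted gene, had values of 13.2, 16.4 and 9.95 in f/f replicates 1, 2 and 3 and 5.57, 5.23 and 5.53 in d/d replicates 1, 2 and 3, without overlap. All 10 uterine markers examined, among them Esr1 and Hoxa11, were present in every library. Summed values ranged from 500764 to 549263 per library, and no pair of libraries held identical values. Across the 12640 genes tested with limma, 0 passed an adjusted p of 0.05 between d/d and f/f (0.0% of genes) and 630 had an unadjusted p under 0.05 (4.98%). Without d/d replicate 2, 12 genes passed.

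None of the 38 ER genes tested passed, and 1, Ern1, had an unadjusted p under 0.05. That number was 13 without d/d replicate 2 (13.7% of all genes tested) and 12 with array quality weights (29.5% of all genes tested). Their median log2 change, d/d minus f/f, was 0.0, beside 0.03 for all genes tested, with 19 genes higher and 19 lower on the log2 scale (43.4% of all genes tested were lower). By the group means of FPKM itself, which give high values more weight than log2 means do, 25 were higher and 13 lower. The group means hid a wide spread among the d/d libraries. D/d replicate 2 held the highest of the 6 values for 30 of the 38 genes, where it did so for 30.1% of all genes tested, and d/d replicate 3 held the lowest for 22 of the 38, against 16.0% of all genes. In 15 of the 38, d/d replicate 2 lay above every f/f library while d/d replicates 1 and 3 both lay below every f/f library, an arrangement found in 6.77% of all genes tested. These counts were chosen after the values had been seen. The order also ran through the controls: f/f replicate 2 was the highest of the 3 controls in 24 of the 38 genes (35.1% of all genes tested) and f/f replicate 3 the lowest in 31 (38.4%). In whole tissue, fewer cells of a type and less RNA per cell cannot be told apart.

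**Figure D1:**
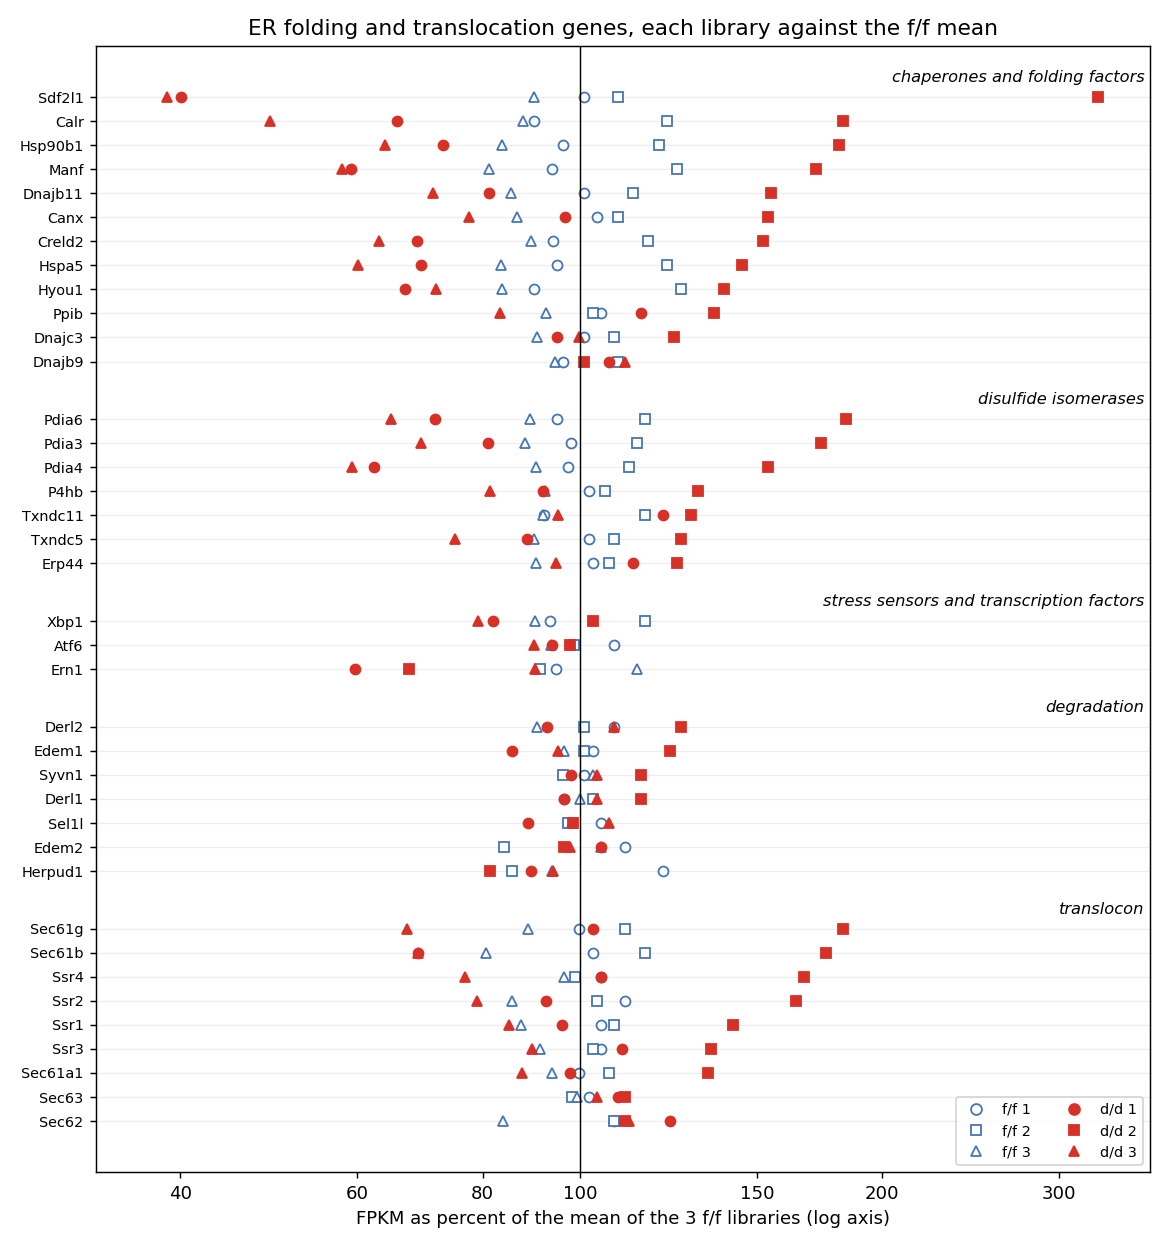
The FPKM of each of the 38 tested genes in each library (x axis, percent of the mean of the 3 f/f libraries, log axis), with genes in rows by role; open blue symbols are f/f and filled red symbols d/d, and circles, squares and triangles are replicates 1, 2 and 3. The red squares of d/d replicate 2 lie farthest right in 30 of the 38 rows, with Sdf2l1 at 328% of the f/f mean, while the degradation genes stay close to the line at 100%.

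The role groups differed in how far apart the libraries lay. Relative to the f/f mean, the median chaperone or folding factor stood at 71.2%, 153% and 67.7% in d/d replicates 1, 2 and 3. For the disulfide isomerases the medians were 88.5%, 131% and 75.1%, and for the translocon genes 103%, 142% and 85.0%. The degradation genes, at 92.7%, 115% and 104%, and the 3 sensors and transcription factors, at 82.0%, 97.8% and 89.9%, varied least. Among all genes tested the medians were 100%, 102% and 102%. The highest library exceeded the lowest by a median of 2.29 times for chaperones, 1.68 times for isomerases, 1.67 times for translocon genes, 1.47 times for sensors and 1.32 times for degradation genes, beside 1.48 times over all genes tested.

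Promoter sequence was examined because the chaperones and isomerases were high and low in the same libraries. The ER stress response element, ERSE, is the site through which ATF6 and XBP1 act together with the CCAAT-binding factor NF-Y. It was searched for as CCAAT and CCACG with any 9 bases between them, on both strands of the RefSeq windows (GRCm38.p6) that run from 250 bases before to 50 bases after each gene's start. Windows were held for 33 of the 39 genes. An exact match lay in 9 of the 33, against 37 of 27025 genes of the genome with a window (0.137%) and 17 of the 10039 tested genes with one (0.169%). The first total includes all 9 genes and the second 8 of them, since Derl3 was not tested. Genes of this set are textbook targets of the element, so the matches describe the set and were not tested. The matching stretches follow, 5′ to 3′ on the gene's own strand, with both ends of the element in capitals. In Calr, Creld2, Derl3 and the downstream of the 2 Hsp90b1 matches it reads on the opposite strand, so that CGTGG comes before ATTGG.
Hspa5: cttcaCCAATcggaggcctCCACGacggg
Hsp90b1: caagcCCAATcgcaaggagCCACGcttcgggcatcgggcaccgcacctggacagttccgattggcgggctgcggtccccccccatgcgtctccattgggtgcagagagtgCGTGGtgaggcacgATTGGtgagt
Calr: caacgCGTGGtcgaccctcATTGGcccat
Canx: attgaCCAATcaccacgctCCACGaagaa
Dnajc3: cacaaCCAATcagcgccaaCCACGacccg
Creld2: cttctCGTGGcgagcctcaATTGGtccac
Pdia6: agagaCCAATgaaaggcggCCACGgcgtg
Syvn1: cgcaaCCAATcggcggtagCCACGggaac
Derl3: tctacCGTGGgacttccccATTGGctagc

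The Hspa5 stretch is chr2:34772020-34772048 on the plus strand, with the element from 65 to 47 bases before the RefSeq start. It also falls in an exon of a longer Hspa5 transcript of GENCODE M21. The other 8 stretches overlap no GENCODE M21 exon. That of Hsp90b1 is chr10:86705528-86705661 (minus strand) and holds 2 matches. The Calr stretch is chr8:84847070-84847098 (minus strand), that of Canx chr11:50325795-50325823 (minus), that of Dnajc3 chr14:118937822-118937850 (plus) and that of Creld2 chr15:88819515-88819543 (plus). The Pdia6 stretch is chr12:17266486-17266514, that of Syvn1 chr19:6046527-6046555 and that of Derl3 chr10:75893237-75893265, all on the plus strand. The shorter ERSE-II, ATTGG and CCACG with any 1 base between them, was found in 2 of the 33 genes, Dnajb11 and Herpud1, and in 0.0444% of all genes with a window. That of Herpud1 lies at chr8:94386372-94386392 (plus strand) within the span of the antisense gene Gm15890, and is shown with the element in capitals because this gene did not follow the chaperones.
Herpud1: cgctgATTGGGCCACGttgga

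The 8 tested genes with an ERSE match had median levels of 72.3%, 153% and 64.5% of the f/f mean in d/d replicates 1, 2 and 3, and the 24 tested genes with a window and no match had 92.2%, 128% and 87.2%. The ranges overlapped in every d/d library. These 2 sets also differed in role, since 6 of the 8 matched genes and 4 of the 24 unmatched genes were chaperones or folding factors, and Hyou1 and Manf were among the genes without a window. Among matched genes Syvn1 stayed at 98.0%, 115% and 104%, while the unmatched Sdf2l1 went from 40.1% and 38.8% in d/d replicates 1 and 3 to 328% in d/d replicate 2. The 9 tested genes outside the set that had an ERSE match stood at medians of 115%, 83.4% and 88.8%. None of 60 further ER pathway genes with a window held a match. The unfolded protein response element TGACGTGG was found in Txndc5 and Txndc11 (0.714% of all genes with a window), and the ATF4-type site TGATGCAAT in 0 of the 33 (0.222%). Matches were counted for each motif on its own, whether or not they overlapped another.

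**Figure D2:**
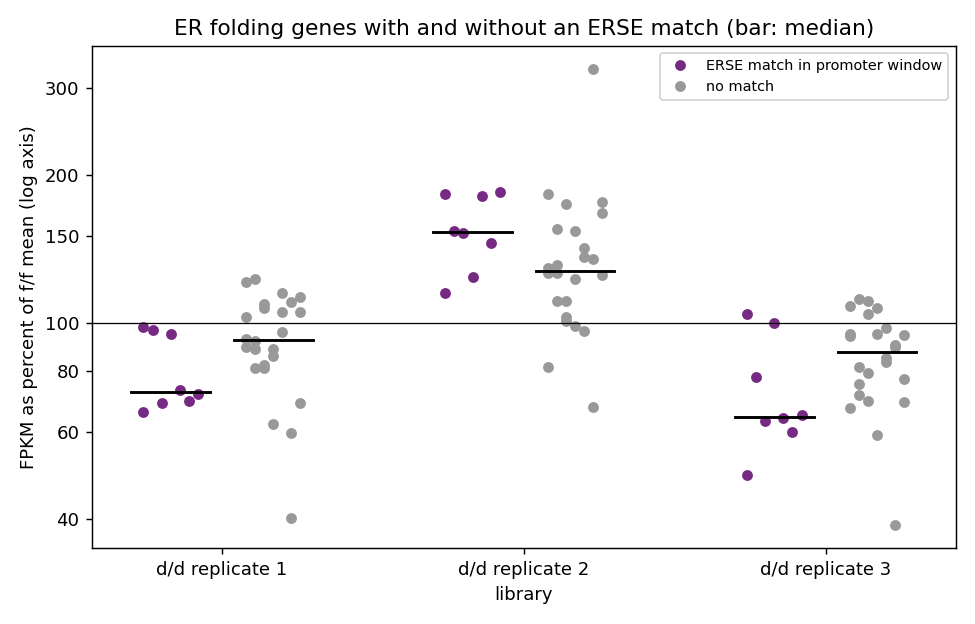
FPKM as percent of the f/f mean (y axis, log) in each d/d library (x axis) for the 8 tested ER genes with an ERSE match (purple) and the 24 without (grey), with the median as a bar. The purple medians are 72.3%, 153% and 64.5% and the grey ones 92.2%, 128% and 87.2%, with overlapping points in all 3 libraries.

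The chaperones and folding factors included some of the most abundant transcripts of the set. Ppib, the ER cyclophilin that isomerises prolines in collagen, had the highest f/f mean of the 39 genes at 333 ± 21.5 FPKM (SD, n = 3), above 98.6% of tested genes. Among the chaperones it was followed by Calr at 235 ± 45.4, Hsp90b1 (GRP94) at 202 ± 37.3 and Hspa5 at 182 ± 35.9 (SD, n = 3). Between Calr and Pdia3, the second to the sixth in the order, the control ranges of neighbours overlapped, so their order was not resolved. Over the whole order, the control ranges of 29 of 38 neighbouring pairs overlapped. Sdf2l1, a cofactor that acts with BiP, was lowest of the chaperones at 8.82 ± 0.835 (SD, n = 3).

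Hspa5 (ENSMUSG00000026864), the BiP chaperone that also holds the stress sensors inactive, had values of 173, 222 and 152 in f/f replicates 1, 2 and 3 and 126, 264 and 109 in d/d replicates 1, 2 and 3. The d/d values lay on both sides of the controls. Its log2 change, d/d minus f/f, was -0.22 (SE 0.32), with -0.61 without d/d replicate 2 and 0.02 without d/d replicate 3. Hsp90b1, the ER member of the HSP90 family, had values of 194, 242 and 169 in f/f and 147, 366 and 129 in d/d. Its d/d replicate 2 was 2.83 times d/d replicate 3, and the log2 change of -0.06 (SE 0.37) became -0.53 without d/d replicate 2 and 0.22 without d/d replicate 3. Calr, the lectin chaperone that binds glycoproteins and calcium, had values of 212, 288 and 207 in f/f and 155, 431 and 116 in d/d. The group means of Calr were nearly equal, at 235 ± 45.4 and 234 ± 172 (SD, n = 3), although no d/d library lay inside the control range.

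Sdf2l1 spread most of all. It had values of 8.93, 9.59 and 7.93 in f/f and 3.53, 28.9 and 3.42 in d/d, so that its highest library exceeded its lowest 8.45 times. The controls lay within a narrow band, and the standard deviation of its log2 values among d/d libraries (1.58) was larger than that of 99.6% of tested genes, while among f/f libraries (0.12) it was larger than that of 50.6%. The log2 change of Sdf2l1 was -0.22 (SE 0.68). It turned to 0.23 without d/d replicate 1 and to 0.25 without d/d replicate 3, and was -1.13 without d/d replicate 2, where Sdf2l1 was the 1 gene of the set among the 12 that passed (limma adjusted p 0.0355).

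Manf, a secreted stress-induced factor that binds BiP, had values of 89.6, 120 and 77.6 in f/f and 56.5, 165 and 55.4 in d/d, with a log2 change of -0.23 (SE 0.41) that was -0.74 without d/d replicate 2 and 0.02 without d/d replicate 1. Dnajb11, a J-domain co-chaperone of BiP, Hyou1, its nucleotide exchange factor, and Creld2, a stress-induced ER protein, were arranged in the same way. For these 3 genes d/d replicate 2 was at 155%, 139% and 152% of the f/f mean, d/d replicate 1 at 81.1%, 67.0% and 68.8%, and d/d replicate 3 at 71.4%, 71.9% and 63.1%. Of the 12 chaperones and folding factors, 8 had d/d replicate 2 above and d/d replicates 1 and 3 below every control, and all 8 ran in the order d/d 2, f/f 2, f/f 1, f/f 3, with d/d 1 and d/d 3 last. That order was found in 14 of the 38 genes and in 1.61% of all genes tested.

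The 4 remaining chaperones departed from it. Canx, the membrane-bound relative of calreticulin, had d/d replicate 2 at 154% of the f/f mean but d/d replicate 1 at 96.6%, inside the control range. Ppib had values of 348, 341 and 308 in f/f and 384, 453 and 277 in d/d, so that d/d replicate 1 lay above the controls. Dnajc3, a co-chaperone that inhibits PERK, ranged from 94.9% to 124% in d/d. Dnajb9, a J-domain protein that represses IRE1 and is among the strongest targets of the IRE1 branch, had values of 30.5, 34.7 and 30.0 in f/f and 33.9, 32.0 and 35.2 in d/d. It varied 1.17 times over the 6 libraries, against 2.41 times for Hspa5.

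Among the disulfide isomerases, P4hb, which is also the beta subunit of collagen prolyl 4-hydroxylase, had the highest f/f mean, with a control range that overlapped that of Pdia3. It had values of 221, 230 and 200 in f/f and 199, 283 and 176 in d/d (log2 change -0.01, SE 0.18, and -0.21 without d/d replicate 2 or 0.13 without d/d replicate 3). Pdia4, a multi-domain isomerase that works with BiP, had values of 51.7, 59.8 and 48.2 in f/f and 33.2, 81.9 and 31.6 in d/d. Its d/d libraries all lay outside the control range, 1 above and the others below, and its log2 change was -0.26 (SE 0.34), with -0.70 without d/d replicate 2, -0.06 without d/d replicate 1 and -0.02 without d/d replicate 3. Pdia3, the partner of calnexin and calreticulin, and Pdia6, which attenuates the sensors, had d/d replicate 2 at 174% and 184% of the f/f mean and d/d replicate 3 at 69.5% and 64.9%. With Txndc5, at 126% and 75.1%, 5 of the 7 isomerases had d/d replicate 2 above and d/d replicates 1 and 3 below every control. In P4hb and Txndc5 d/d replicate 1 (199 and 104) lay close to the lowest control (200 and 106). All 7 isomerases had f/f replicate 2 as the highest and f/f replicate 3 as the lowest control. Txndc11 and Erp44, the latter a retention factor that cycles between ER and Golgi, were the other two. Txndc11 had values of 9.32, 11.8 and 9.30 in f/f and 12.3, 13.1 and 9.63 in d/d, so that d/d replicate 1 lay above the controls (log2 change 0.19, SE 0.15, and 0.10 without d/d replicate 2, 0.29 without f/f replicate 2 or 0.31 without d/d replicate 3). Erp44 had d/d replicate 1 at 113% and d/d replicate 3 at 94.6%.

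**Figure D3:**
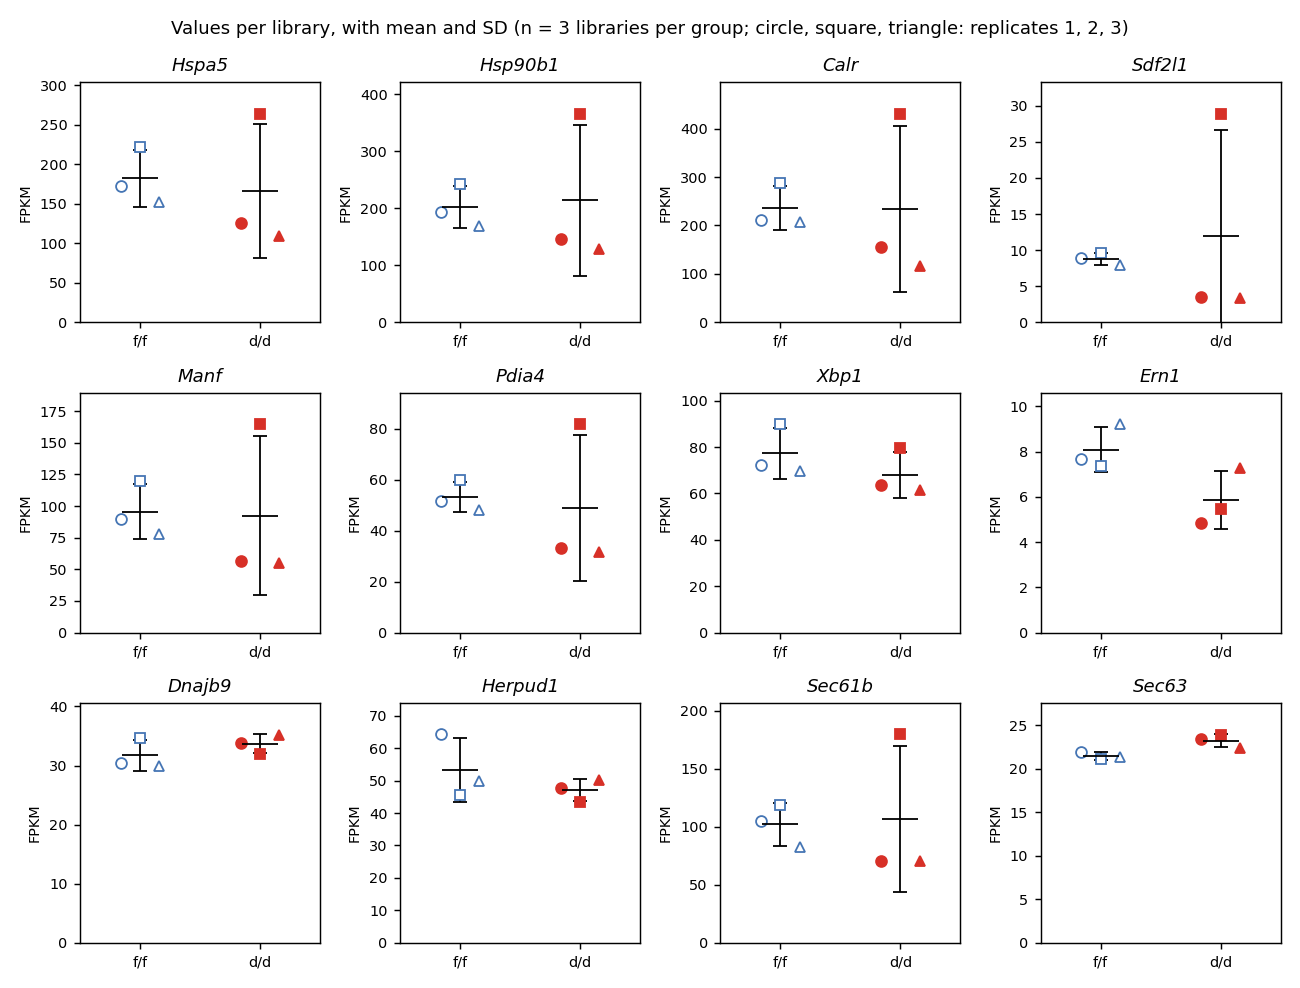
FPKM (y axis, starting at 0) of 12 ER genes in the 3 f/f and 3 d/d libraries, each point a library, with the group mean and SD (n = 3) in black; the lower SD bar of Sdf2l1 ends at 0, where the axis ends. Hspa5, Hsp90b1, Calr, Sdf2l1, Manf, Pdia4 and Sec61b have 1 d/d library above the controls and the others below, Ern1 lies lower in all 3 d/d libraries, and Dnajb9 and Herpud1 vary little among d/d libraries.

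None of the 3 genes for sensors and transcription factors had its highest value in d/d replicate 2. Ern1 (ENSMUSG00000020715), which encodes IRE1, the kinase and nuclease that splices Xbp1 mRNA, had values of 7.65, 7.37 and 9.22 in f/f and 4.83, 5.46 and 7.29 in d/d. The groups did not overlap, although d/d replicate 3 (7.29) lay close to f/f replicate 2 (7.37). On the log2 scale the difference was -0.42 (SE 0.16; limma adjusted p 0.922), and it ranged from -0.57 to -0.31 over the alternatives. Its unadjusted p of 0.0364 was no longer under 0.05 when f/f replicate 1, f/f replicate 3, d/d replicate 1 or d/d replicate 2 was left out, or with no low-value filter. All d/d values lay below all f/f values in 4.6% of the genes tested. Groups failed to overlap, in either direction, in 3 of the 38 ER genes and in 10.7% of all genes tested. Xbp1, the transcription factor produced from the spliced mRNA, had values of 72.3, 90.0 and 69.9 in f/f and 63.5, 79.4 and 61.3 in d/d, with d/d replicate 2 inside the control range (log2 change -0.18, SE 0.15). The change was -0.07 without f/f replicate 2, -0.11 without d/d replicate 3 and -0.30 without d/d replicate 2. Within each group its libraries stood in the order of the chaperones, replicate 2, then 1, then 3, and d/d replicates 1 and 3 lay below every control. Gene-level values do not separate spliced from unspliced Xbp1. Atf6, which is cleaved in the Golgi to release a transcription factor, lay between 8.66 and 9.42 in d/d and between 9.01 and 10.4 in f/f.

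The degradation genes were the steadiest group. Herpud1, a stress-induced scaffold of the HRD1 complex, was most abundant, with values of 64.3, 45.5 and 49.9 in f/f and 47.6, 43.3 and 50.1 in d/d. Its d/d replicate 2 was the lowest of the 6 libraries, the reverse of the chaperones, and its log2 change was -0.16 (SE 0.15), which was -0.02 without f/f replicate 1, -0.11 without d/d replicate 2 and -0.27 without f/f replicate 2. Derl2, a derlin of the retrotranslocation machinery, had values of 11.0, 10.3 and 9.19 in f/f and 9.41, 12.8 and 11.0 in d/d (log2 change 0.11, SE 0.14). That change was 0.0 without d/d replicate 2, 0.04 without f/f replicate 3, 0.21 without d/d replicate 1 and -0.07 with array quality weights. Syvn1, the HRD1 ubiquitin ligase, its partner Sel1l, and Derl1 varied between 1.19 and 1.20 times over the 6 libraries. Edem1 and Edem2, which take mannose-trimmed glycoproteins out of the folding cycle, differed: Edem1 had d/d replicate 2 at 123% of the f/f mean and d/d replicates 1 and 3 at 85.5% and 95.0%, and Edem2 had 96.3% in d/d replicate 2 and 105% and 97.7% in d/d replicates 1 and 3. Edem1 was the 1 degradation gene of the 7 tested with d/d replicate 2 above and the other d/d libraries below every control. Its d/d replicate 3 (10.3) lay close to f/f replicate 3 (10.4). Derl3, a derlin most abundant in secretory cells, had values of 0.341, 1.5 and 1.17 in f/f and 0.725, 0.535 and 0.69 in d/d.

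The translocon genes were high in d/d replicate 2 without being uniformly low in d/d replicate 1. Sec61b and Sec61g, the small subunits of the Sec61 channel, stood at 176% and 183% of the f/f mean in d/d replicate 2, whereas Sec61a1, its pore-forming subunit, stood at 134%. In d/d replicate 1, Sec61b was at 68.9%, Sec61g at 103% and Sec61a1 at 97.7%. Of the 4 translocon-associated (TRAP) subunits, Ssr2 had the highest f/f mean, with values of 153, 143 and 118 in f/f and 128, 226 and 109 in d/d (log2 change 0.10, SE 0.26). Ssr4 had values of 111, 105 and 103 in f/f and 111, 178 and 81.7 in d/d (log2 change 0.14, SE 0.26), and d/d replicate 1 equalled the highest control to the precision given. Without d/d replicate 2 both changes turned, to -0.22 for Ssr2 and -0.15 for Ssr4, and without d/d replicate 3 they were 0.31 and 0.40. Ssr1 and Ssr3 stood at 142% and 135% in d/d replicate 2. Of the 9 translocon genes, 8 were highest in d/d replicate 2 (30.1% of all genes tested). In 7, d/d replicate 3 lay below every control (25.5% of all genes tested). Only in Sec61b did d/d replicate 1 lie below every control too (31.9% of all genes tested).

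Sec62 and Sec63, auxiliary subunits that help short precursors and BiP engage the channel, were the exceptions. Sec62 had values of 47.9, 47.7 and 37.1 in f/f and 54.5, 49.1 and 49.7 in d/d (log2 change 0.21, SE 0.13), and the change was 0.09 without f/f replicate 3, its 1 low control. Sec63, which carries the J domain that recruits BiP, had values of 22.0, 21.1 and 21.4 in f/f and 23.4, 23.9 and 22.4 in d/d (log2 change 0.11, SE 0.10, and 0.07 with quantile normalization or upper-quartile scaling). In both genes every d/d library lay above every control, as in 6.12% of all genes tested. For Sec63 the difference of the means, 21.5 ± 0.476 against 23.2 ± 0.712 (SD, n = 3), was small. Neither passed over all genes (limma adjusted p 0.922 for Sec62 and 0.943 for Sec63).

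**Figure D4:**
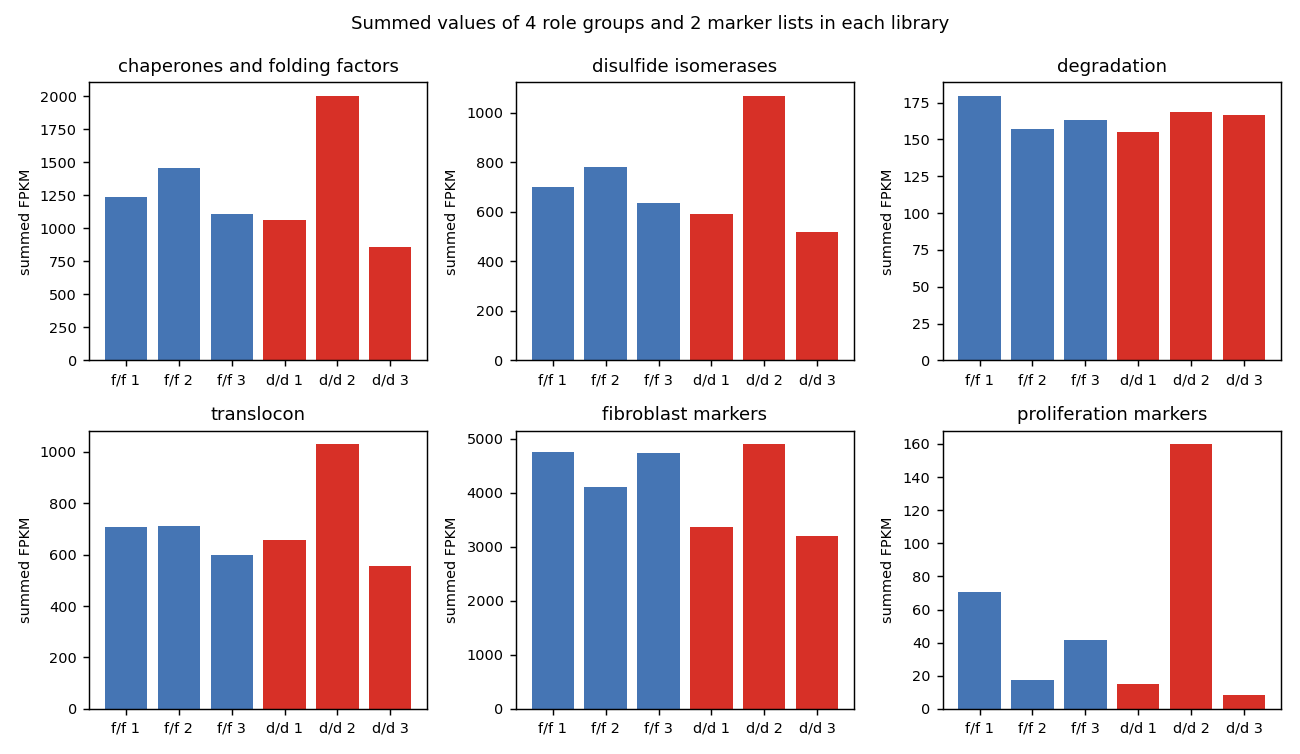
Summed FPKM (y axis, starting at 0) in each of the 6 libraries for 4 role groups and for fibroblast and proliferation markers, f/f in blue and d/d in red. The chaperone sum is 2006 in d/d replicate 2 and 862.9 to 1460 elsewhere, the degradation sum stays between 154.9 and 179.8, and the proliferation sum is 160 in d/d replicate 2 and 17.4 in f/f replicate 2.

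Markers of cell types and of the cell cycle were set beside these values. The summed chaperone level was 1236, 1460 and 1108 in f/f and 1063, 2006 and 862.9 in d/d. The 8 proliferation markers summed to 70.4, 17.4 and 41.5 in f/f and 14.8, 160 and 8.09 in d/d, with 6 of the 7 tested markers above every control in d/d replicate 2 and below every control in the other two. The 7 fibroblast markers summed to 4760, 4110 and 4740 in f/f and 3370, 4900 and 3200 in d/d. Of these 7, 5 had the same arrangement, which was found in 6.77% of all genes tested. Col1a1, a collagen I chain, was among the 5, with values of 765, 677 and 750 in f/f and 394, 984 and 361 in d/d. The other two, Dcn and Pdgfra, were lowest of the 6 libraries in d/d replicate 2. Dcn, the matrix proteoglycan decorin, had values of 1070, 1030 and 1110 in f/f and 1160, 646 and 1200 in d/d, so that d/d replicates 1 and 3 lay above every control. Pdgfra, a growth factor receptor of fibroblasts, had values of 78.6, 65.1 and 91.7 in f/f and 58.3, 39.5 and 77.3 in d/d, with d/d replicate 1 also below every control and d/d replicate 3 inside their range. The 2 marker sums stood in the order of the chaperones among the d/d libraries, but not among the controls, where f/f replicate 2, highest in chaperones, was lowest in both. The part of proliferating cells or fibroblasts in the ER values was not tested.

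Markers of other cells with a large ER gave other patterns. Of 7 plasma cell markers listed in the files, 2 passed the minimum for testing. The 7 summed to 30.7 to 38.4 in f/f and 33.9 to 43.9 in d/d. Sdc1, which epithelial cells also express, made up 28.7 to 40.4 of these sums, and Mzb1 ranged from 0.248 to 0.63. Jchain was at 4.5 in d/d replicate 2 and at 0.0622 to 0.58 elsewhere. The 7 exocrine pancreas markers summed to less than 1 in every library, with Cel, Amy2a5 and Ctrb1 at 0 in all 6. The 10 epithelial markers summed to 642 to 739 in f/f and 784, 736 and 823 in d/d, and the 7 smooth muscle markers to 3970 to 4580 in f/f and 3710 to 4760 in d/d. None of the 10 epithelial and 7 smooth muscle markers had the arrangement seen in the chaperones, nor had the 2 plasma cell markers that were tested. No pancreas marker passed the minimum for testing.

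Outside the set, 75 further genes of the ER pathway were tested. None passed at an adjusted p of 0.05 in limma, and 2 had an unadjusted p under 0.05, both lower in d/d (2.3% of all genes tested). Their median log2 change was 0.03, with 47 higher and 28 lower (43.4% of all genes tested were lower). D/d replicate 2 was the highest library for 46 of the 75 (30.1% of all genes tested). In 18, d/d replicate 2 lay above and the other d/d libraries below every control (6.77% of all genes tested). Of these 18, 9 were among the 13 genes of the oligosaccharyltransferase, which adds N-glycans, and of the glucosidases and lectins that act on them. Among the 13 genes of signal recognition and signal peptidase, all were highest in d/d replicate 2 and none had the full arrangement. Serpinh1, the collagen chaperone HSP47, named after its values were seen, had values of 488, 538 and 405 in f/f and 286, 833 and 231 in d/d.

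In the PERK branch, 1 of the 9 tested genes had the full arrangement of the chaperones (6.77% of all genes tested). Among the 5 ATF6-type factors and their proteases 1 did, Creb3l1. Atf4, the transcription factor translated when PERK or another eIF2alpha kinase is active, had values of 75.3, 92.8 and 70.1 in f/f and 116, 110 and 84.3 in d/d (log2 change 0.37, SE 0.16; limma adjusted p 0.922), with overlap. Ddit3 (CHOP), a target of ATF4, had values of 31.3, 27.8 and 25.4 in f/f and 37.2, 28.9 and 32.9 in d/d. The 1 gene with the arrangement was Eif2ak3, which encodes PERK, with values of 7.65, 8.42 and 7.73 in f/f and 6.97, 9.27 and 7.48 in d/d. Among the 9 tested genes of the PERK branch, d/d replicate 2 was highest in 3 (30.1% of all genes tested). Atf6b, the relative of Atf6, had values of 26.1, 23.2 and 22.3 in f/f and 13.5, 22.1 and 16.1 in d/d, without overlap (log2 change -0.47, SE 0.18; limma adjusted p 0.922), and the change was -0.74 with array quality weights. Creb3l2, a related ER-anchored factor that promotes secretory capacity, had values of 33.9, 35.2 and 32.6 in f/f and 23.6, 24.8 and 31.9 in d/d, also without overlap (log2 change -0.34, SE 0.13; limma adjusted p 0.922). Groups failed to overlap in 6 of the 75 further genes (10.7% of all genes tested), these 2 and Mogs lower in d/d and Srp68, Tmx1 and Sil1 higher.

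The 5 tested genes outside the set whose log2 values were most like those of Hspa5, by Pearson's r over the 6 libraries, were Cct3 (r = 0.999), Tubd1 (0.997), Gtf2h3, Slc39a2 and Adsl (0.992 each). Cct3, a subunit of the cytosolic chaperonin, had values of 107, 125 and 100 in f/f and 88.8, 142 and 82.6 in d/d. Without d/d replicate 2 the r of the 5 genes lay between 0.989 and 0.999. These are descriptions over libraries that share scaling, and the 5 genes were the best of 12602 compared.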

How the data were processed

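Each library came with its own table of gene symbols and values. The deposited values are FPKM, a unit inferred from the values and from the naming of Cufflinks 2.2.1 beside HISAT2 2.2.1 and the build mm10 in the submitters' processing notes. Annotation, strandedness and filters are not given in the sources used here. Overlapping and antisense genes are therefore uncertain. Read counts are unknown, so no counting intervals are given. Groups and replicate numbers came from the sample titles.

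Values were analysed as log2(FPKM + 1), which understates changes of low genes. The 12640 genes that reached 1 FPKM in 3 or more of the libraries were fitted with limma 3.58.1 in R 4.3.3 (trend, group as the only term), with two-sided p-values adjusted by Benjamini-Hochberg over all of them. On simulated data for this comparison, 12640 genes with 200 changed, 85.2% of changes of 1.5 log2 units and 30.5% of changes of 0.75 were called. In the libraries, the median SD of log2 values over all genes tested was 0.12 in f/f and 0.21 in d/d. For the chaperones and folding factors it was 0.2 and 0.63. Whether the 2 rates hold for genes with that spread was not tested. Nat10, with a log2 change of -1.11, did not pass (limma adjusted p 0.669). The genes, lists, tests and alternatives were chosen with earlier results of these data known. Values in every library are given for Hspa5, Hsp90b1, Xbp1 and Ern1 and, by role, for the most and least abundant genes, the 2 with the largest log2 change and those whose groups do not overlap. The rule also names Nat10, Atf4, Ddit3, Eif2ak3, the further ER genes with an unadjusted p under 0.05 and no overlap (Atf6b, Creb3l2), and the 5 genes most like Hspa5 by Pearson's r, of which Cct3 is given in full. Other genes from outside the set, and Dnajb9, were named after their values were seen. Motifs were matched exactly in RefSeq windows. Python 3.11.15, pandas 2.3.3, numpy 2.4.6 and matplotlib 3.10.9 were used.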

Additional observations from a re-analysis of the deposited data

How the results depend on the processing

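Leaving out 1 library at a time gave between 0 and 12 genes at an adjusted p of 0.05 in limma, the 12 without d/d replicate 2, and array quality weights gave 316. Of the 38 ER genes, 1 (Sdf2l1) passed without d/d replicate 2 and 0 under the other alternatives. At an unadjusted p under 0.05 the ER genes numbered 13 without d/d replicate 2, all lower in d/d (13.7% of all genes), and 12 with array quality weights, 10 of them lower (29.5% of all genes). The median log2 change of the ER genes lay between -0.18 (without d/d replicate 2) and 0.13 (without d/d replicate 3). The chaperone median of -0.11 was -0.50 without d/d replicate 2 and 0.13 without d/d replicate 3, and the translocon median of 0.11 was -0.14 without d/d replicate 2. The cause was not tested. The count of 15 genes with d/d replicate 2 above and the other d/d libraries below every control was 15 or 16 after quantile normalization, median centring or upper-quartile scaling, settings applied to it after the data were seen. With the replicate number as a block (replicate block) 0 genes passed, with 726 at an unadjusted p under 0.05. Over all genes tested, same-numbered libraries did not deviate together (correlations of -0.34, -0.03 and 0.1 for numbers 1, 2 and 3). The numbers were therefore not taken to pair them. These correlations do not describe the ER genes on their own. Among those 38, f/f replicate 2 was the highest control in 24 and d/d replicate 2 the highest library in 30. F/f replicate 3 was the lowest control in 31, and d/d replicate 3 lay below every control in 26. With 3 libraries a group and unknown depth, small differences may have been missed. Changes below 0.75 log2 units were not simulated.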
